A study of Mus musculus with 6 samples.

Results

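The 10 genes described here are those by which mouse basophils and mast cells are commonly recognised. They encode chains of the IgE receptor (Fcer1a, Ms4a2), granule proteases of basophils (Mcpt8, Prss34), products shared by basophils and mast cells (Cpa3, Hdc, Il4) and granule proteases of mast cells (Cma1, Tpsb2, Mcpt4). Each was taken from the array row whose only gene symbol it is, and all 10 were found, with 1 row each, among 30063 named genes. They were measured in megakaryocytes, the polyploid marrow cells that release platelets, sorted by side scatter, the surface integrin CD41 and a DNA content of at least 8N. The tested cells came from bone marrow of female C57 mice with acute myeloid leukaemia (AML) induced by the fusion oncogene MLL-AF9 (3 arrays), and the comparison cells from marrow of healthy female C57 mice (3 arrays). How the leukaemia was induced, the age of the mice and whether animals were pooled are not given in the sources used here. The arrays of a group are labelled biological replicates, with no animal numbers. The p-values therefore rest on how much these 6 samples vary, which may include technical variation.

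Basophils and mast cells are granulocytes that carry IgE on a high-affinity receptor, and when antigen cross-links that IgE they release histamine, proteases and cytokines. In mice, basophils mature in the bone marrow and circulate, whereas mast cells mature in tissues, where they store chymases and tryptases. Both lineages depend on GATA factors, which megakaryocytes use as well. RNA of a minor cell type in a sort enters the same measurement as RNA of the sorted cells, and fewer cells of a type and less RNA per cell cannot be told apart in such a sample.

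Values are log2 expression as deposited, ± is the SD over n = 3 arrays, and differences are AML minus control, on the log2 scale. Tests are limma's moderated test over all 30063 genes with Benjamini-Hochberg adjustment, and a gene rose or fell where its adjusted p was under 0.05. The number of arrays limits the precision. The array medians over all genes lay at 5.29 to 5.32 in AML and at 5.16 to 5.24 in control, and the median difference over all genes was 0.11. Over all genes 1880 fell and 1350 rose, and after median centring of the arrays 2712 fell and 505 rose. No detection calls were used, so odour and pheromone receptor genes (olfactory and vomeronasal), families with little known use in marrow cells, stood in for background. The 95th percentile of 1718 such genes lay at 5.59, 5.76 and 6.24 on AML arrays 1, 2 and 3 and at 5.60, 5.19 and 5.11 on control arrays 1, 2 and 3. A group mean at or under the average of its arrays, 5.86 in AML and 5.30 in control, was not shown to be above background. Megakaryocyte markers were well above it: Pf4, platelet factor 4, averaged 11.98 ± 0.22 in AML and 12.09 ± 0.12 in control (adjusted p = 0.546), and each of the 13 measured markers exceeded it in at least 1 group.

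Of the 10 genes, 4 fell in the AML sorts, 0 rose, and 6 did not pass the test (limma; at an unadjusted p under 0.05, 6 were lower and 0 higher). Over all genes the test called 6.25% lower and 4.49% higher. Among the 13242 genes whose mean lay above the receptor gene level, 12.1% were called lower. The counts of falls in the lists further on stand beside these same shares. The genes that fell were the IgE receptor chain genes Fcer1a and Ms4a2 and the basophil protease genes Mcpt8 and Prss34. The median difference of the 10 genes was -0.96, against 0.11 over all genes; medians of lists are of measured differences and include genes under background. The AML values lay below all control values in 6 of the 10 genes, against 13.1% of all genes, and above all control values in 0, against 28.2%. Markers of other myeloid cells were lower in the same sorts (neutrophil markers: 10 of 12 fell), as detailed further on, and their part in these differences was not tested.

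**Figure D1:**
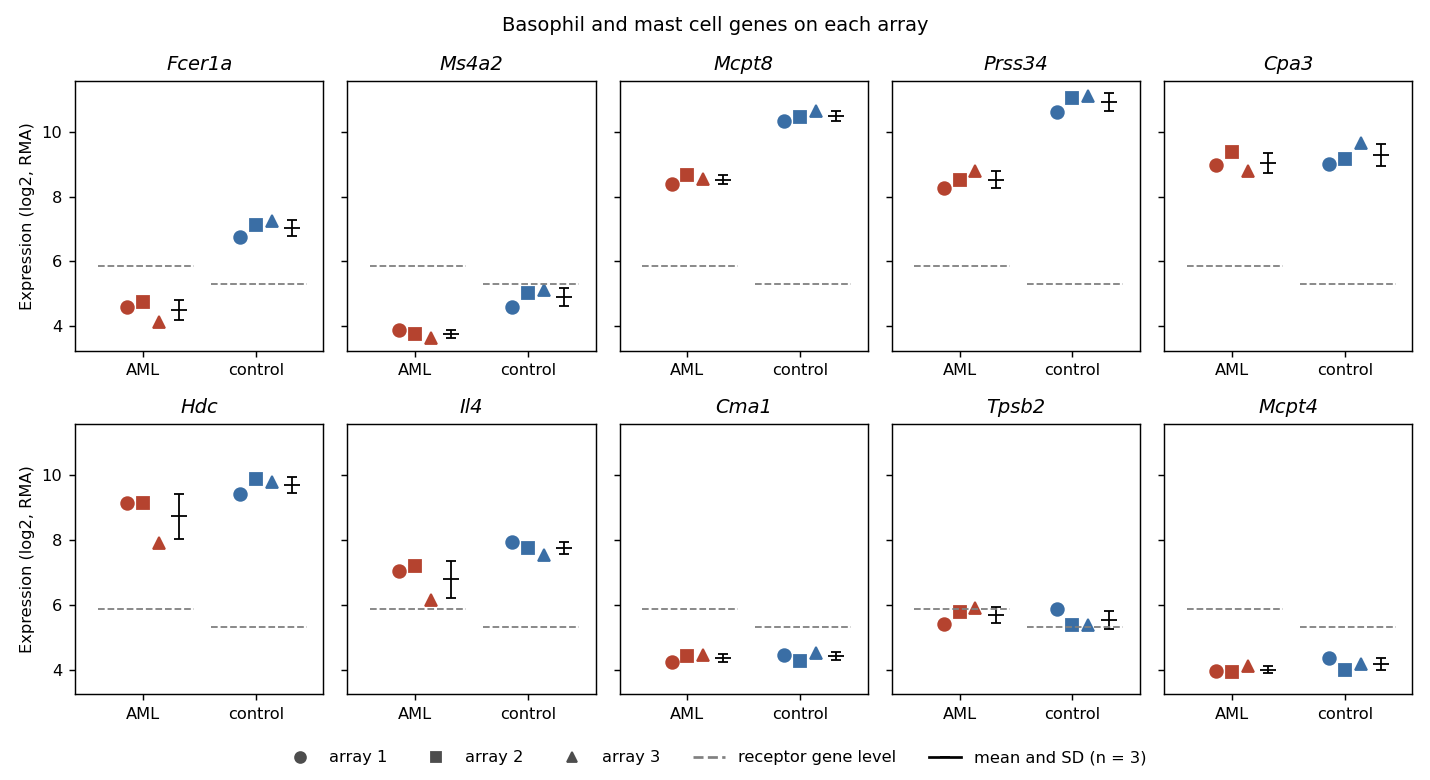
Log2 expression (RMA) of the 10 genes on each array, with AML left of control; symbols mark the array number, bars the mean and SD of 3 arrays, and dashed lines the average receptor gene level of the group. The groups are far apart for Mcpt8 (AML mean 8.52, control mean 10.48), Prss34 and Fcer1a, overlap for Cpa3, and lie under the dashed lines for Cma1 and Mcpt4.

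Mcpt8, a serine protease gene that in mice is used as a marker of basophils, measured 8.39, 8.65 and 8.54 on AML arrays 1, 2 and 3, against 10.34, 10.44 and 10.65 on control arrays 1, 2 and 3. The AML arrays agree within 0.13 (SD) and lie entirely below the control arrays. The level was 3.87-fold lower in AML (difference -1.95, SE 0.11, 95% confidence interval -2.21 to -1.69, adjusted p = 0.000368 by limma).

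Prss34, which encodes another granule protease of mouse basophils, measured 8.25, 8.50 and 8.79 on the AML arrays and 10.60, 11.02 and 11.10 on the control arrays. All AML values were again below all control values, and AML array 3 was the highest of its group. The fall was 5.25-fold (difference -2.39, SE 0.18, 95% confidence interval -2.81 to -1.98, adjusted p = 0.000754). In both groups Mcpt8 and Prss34 stayed more than 2 log2 units above the receptor gene level, so both were still measured above background in the AML sorts.

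Fcer1a encodes the alpha chain of the high-affinity IgE receptor, the chain that binds IgE. It measured 4.61, 4.74 and 4.15 on the AML arrays, against 6.76, 7.11 and 7.25 on the control arrays. The groups do not overlap, and the AML values are all under the receptor gene level. Set against that level, Fcer1a was at least 2.26-fold lower in AML (difference of the measured means -2.54, SE 0.18, adjusted p = 0.000718).

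Ms4a2 encodes the beta chain of the same receptor, which amplifies its signal. Its values were 3.89, 3.78 and 3.63 on the AML arrays and 4.60, 5.02 and 5.11 on the control arrays. The groups are separate, but both group means, 3.77 ± 0.13 in AML and 4.91 ± 0.27 in control, lie under the receptor gene level, so no fold is given for the fall (adjusted p = 0.00529). These 4 falls were called in every alternative in which the gene was tested: 19 for Fcer1a, Mcpt8 and Prss34, and 16 for Ms4a2, which the filters on dim genes removed.

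Cpa3, Hdc and Il4, the genes shared by both cell types, did not pass the test. Cpa3, the gene of carboxypeptidase A3, a granule enzyme of mast cells and basophils, measured 8.97, 9.37 and 8.80 on the AML arrays against 8.99, 9.17 and 9.64 on the control arrays. The groups overlap, and the difference of -0.23 (SE 0.21, 95% confidence interval -0.71 to 0.26) did not pass (adjusted p = 0.447). Its level is far above background in both groups, and the difference found for Mcpt8, -1.95, lies outside that interval. The interval is for Cpa3 alone, so it does not test whether Cpa3 and Mcpt8 changed unequally.

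Hdc encodes histidine decarboxylase, which makes histamine. It measured 9.12, 9.14 and 7.91 on the AML arrays and 9.40, 9.87 and 9.78 on the control arrays. The groups do not overlap, yet AML array 3 lies more than a log2 unit under the other AML arrays, and the difference of -0.96 (SE 0.33, 95% confidence interval -1.74 to -0.18) did not pass (adjusted p = 0.103). Without AML replicate 3 the difference was -0.55 (adjusted p = 0.0568).

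Il4, the gene of interleukin 4, a type 2 cytokine that basophils release, measured 7.04, 7.20 and 6.13 on the AML arrays against 7.93, 7.76 and 7.54 on the control arrays. AML array 3 is again the lowest, and no AML value reaches the control range. The difference of -0.95 (SE 0.27, 95% confidence interval -1.60 to -0.31) did not pass (adjusted p = 0.067), whereas without AML replicate 3 it was -0.63 and passed (adjusted p = 0.0297). AML array 3 held the lowest AML value of Fcer1a, Ms4a2, Cpa3, Hdc and Il4 and the highest of Prss34, Cma1, Tpsb2 and Mcpt4, and it is also the array with the highest receptor gene level.

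The change of the basophil proteases was set directly against that of Cpa3, for pairs chosen after the values were seen. The log2 ratio of Mcpt8 to Cpa3 within an array was -0.58, -0.73 and -0.26 in AML, against 1.35, 1.27 and 1.01 in control. All AML ratios lie below all control ratios, with a difference of -1.73. The log2 ratio of Prss34 to Cpa3 was -0.71, -0.87 and -0.01 in AML and 1.61, 1.85 and 1.46 in control, a difference of -2.17. The log2 ratio of Mcpt8 to Prss34 differed by 0.44. Each of these 3 comparisons gave an exact two-sided permutation p of 0.1 (0.1 after Benjamini-Hochberg adjustment over the 3 pairs), the smallest that this permutation test allows with 3 against 3 arrays, so it cannot reach 0.05 here.

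The 3 granule protease genes of mature mast cells lay at or near background and did not pass the test. Cma1, a mast cell chymase gene, measured 4.22, 4.42 and 4.44 in AML against 4.46, 4.27 and 4.50 in control, and Mcpt4, another chymase gene, 3.95, 3.94 and 4.12 in AML against 4.35, 3.98 and 4.18 in control. Both genes lie under the receptor gene level on every array, and neither passed the test (adjusted p = 0.716 for Cma1 and 0.309 for Mcpt4). Tpsb2, a mast cell tryptase gene, measured 5.41, 5.78 and 5.89 in AML against 5.87, 5.36 and 5.38 in control. Its AML mean of 5.69 ± 0.25 is under that level and its control mean of 5.54 ± 0.28 barely over it, the groups overlap, and the difference of 0.16 did not pass (adjusted p = 0.542). The chymases are close paralogs, as are the tryptases, and values of single paralogs are uncertain where probes share sequence.

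**Figure D2:**
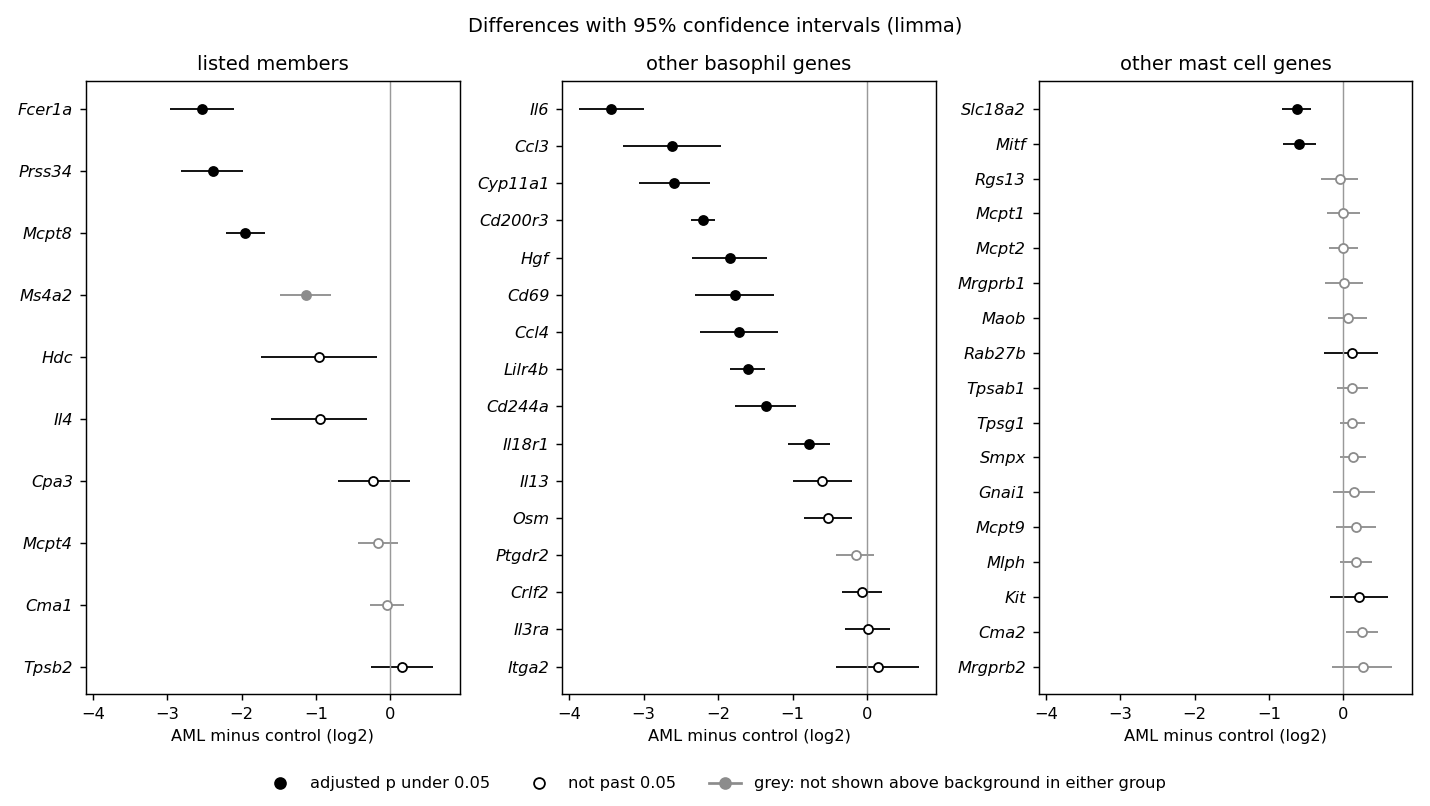
AML minus control differences (log2) with 95% confidence intervals for the 10 genes, 16 other basophil genes and 17 other mast cell genes; filled points passed an adjusted p of 0.05 and grey marks genes not shown above background in either group. Filled points lie to the left in the first 2 panels (Fcer1a -2.54, Il6 -3.44), while 15 of the 17 other mast cell genes are open points.

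The windows upstream of the transcription start were read for the genes that fell and for Cpa3, which did not pass. They are 250 bases long, come from RefSeq on the assembly GRCm38.p6 and are written 5′ to 3′ on the strand of the gene: Fcer1a at chr1:173227230-173227479 (minus strand), Ms4a2 at chr19:11623720-11623969 (minus), Mcpt8 at chr14:56085198-56085447 (minus), Prss34 at chr17:25298144-25298393 (plus) and Cpa3 at chr3:20242182-20242431 (minus). Capitals mark matches to the GATA factor motif, searched on both strands as A or T, then GATA, then A or G.
Fcer1a: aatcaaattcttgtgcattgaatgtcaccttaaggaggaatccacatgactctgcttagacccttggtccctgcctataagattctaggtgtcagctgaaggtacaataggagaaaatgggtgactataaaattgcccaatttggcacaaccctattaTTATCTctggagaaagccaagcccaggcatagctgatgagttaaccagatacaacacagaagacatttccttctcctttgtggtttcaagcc
Ms4a2: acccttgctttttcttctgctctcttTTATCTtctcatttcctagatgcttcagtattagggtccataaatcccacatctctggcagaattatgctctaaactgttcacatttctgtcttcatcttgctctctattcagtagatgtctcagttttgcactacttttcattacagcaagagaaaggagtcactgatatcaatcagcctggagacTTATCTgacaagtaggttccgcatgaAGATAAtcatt
Mcpt8: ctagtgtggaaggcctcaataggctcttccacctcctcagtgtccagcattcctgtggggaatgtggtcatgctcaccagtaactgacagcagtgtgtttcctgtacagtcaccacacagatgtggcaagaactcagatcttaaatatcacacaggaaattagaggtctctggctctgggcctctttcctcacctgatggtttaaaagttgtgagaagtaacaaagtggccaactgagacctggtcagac
Prss34: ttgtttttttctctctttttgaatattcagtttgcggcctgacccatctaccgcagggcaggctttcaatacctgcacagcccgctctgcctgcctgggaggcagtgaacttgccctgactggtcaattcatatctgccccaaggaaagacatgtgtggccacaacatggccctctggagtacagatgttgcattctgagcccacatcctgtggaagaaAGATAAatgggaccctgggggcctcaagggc
Cpa3: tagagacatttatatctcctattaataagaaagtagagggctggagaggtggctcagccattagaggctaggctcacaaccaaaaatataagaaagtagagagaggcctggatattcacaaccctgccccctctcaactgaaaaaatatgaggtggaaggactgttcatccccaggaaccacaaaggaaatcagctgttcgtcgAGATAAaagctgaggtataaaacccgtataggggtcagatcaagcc

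RefSeq windows were matched for 9 of the 10 genes, 10 windows in all, since Il4 has a pair of starts. A GATA match stood in 8 of these 10 windows, against 26.5% of 32851 windows of the same length. Ms4a2 held 3 matches, beginning 224, 37 and 11 bases before the start, Fcer1a held 1 beginning at 92 bases, Prss34 1 at 31 bases and Cpa3 1 at 46 bases. Mcpt8, which fell, held 0 matches, and Cpa3, which did not pass the test, held 1. Cma1, Hdc, Mcpt4 and 1 of the Il4 windows, of genes that did not pass either, also held a match. The GATA motif was chosen because basophil and mast cell genes are known targets of GATA factors. A C/EBP motif, TTGCNNAA, stood in 2 of the 10 windows (9.56% of all) and a STAT5 motif, TTCNNNGAA, in 0 of 10 (7.02% of all). Both were searched on both strands. Matches describe the letters of these windows and are not measured binding sites. Gata2 averaged 7.46 ± 0.24 in AML and 7.12 ± 0.10 in control (adjusted p = 0.121), Gata1 6.29 ± 0.15 in AML and 6.01 ± 0.08 in control (adjusted p = 0.11), and Cebpa, a factor of basophil and neutrophil precursors, 9.0 ± 0.21 in AML and 8.70 ± 0.09 in control (adjusted p = 0.13). All 3 factors were picked with their values in view. Gata2 passed upward without AML replicate 3 (difference 0.47, adjusted p = 0.0299) and with array weights (difference 0.46, adjusted p = 0.0136).

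The serine protease genes lie in clusters of related genes, and their neighbours were measured as well. On chromosome 14 the chymase locus holds, in order, Cma1, Cma2, Mcpt1, Mcpt2, Mcpt9, Mcpt4, Mcpt8, Ctsg and then granzyme genes ending with Gzmb. Of its 13 measured genes, 3 fell and 1 rose, and 9 were not shown above background in either group. Beside Mcpt8, the genes that fell were Gzmb and Gzmc. Gzmb is the gene of the cytotoxic protease granzyme B, which averaged 7.13 ± 0.06 in AML and 10.47 ± 0.16 in control, a 10.1-fold fall (adjusted p = 4.42e-05). Gzmc, another granzyme gene, averaged 5.30 ± 0.13 in AML, under background, and 7.54 ± 0.36 in control, and was at least 3.19-fold lower (adjusted p = 0.000971). Ctsg, the gene of cathepsin G of neutrophil and monocyte precursors, is the direct neighbour of Mcpt8 among the measured genes and rose, with 9.0 ± 0.23 in AML and 8.05 ± 0.34 in control (adjusted p = 0.0251), a call lost without AML replicate 1, AML replicate 2 or control replicate 2 (adjusted p 0.0682 to 0.0915).

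On chromosome 17 the tryptase locus holds 12 measured serine protease genes, of which Prss34 alone passed the test. The other 11 differed by 0.11 to 0.26, close to the median of all genes, and 7 of the 12 were not shown above background in either group. Prss28, the next measured gene beside Prss34, averaged 4.38 in AML and 4.25 in control, whereas Prss34 averaged 8.52 in AML and 10.91 in control.

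**Figure D3:**
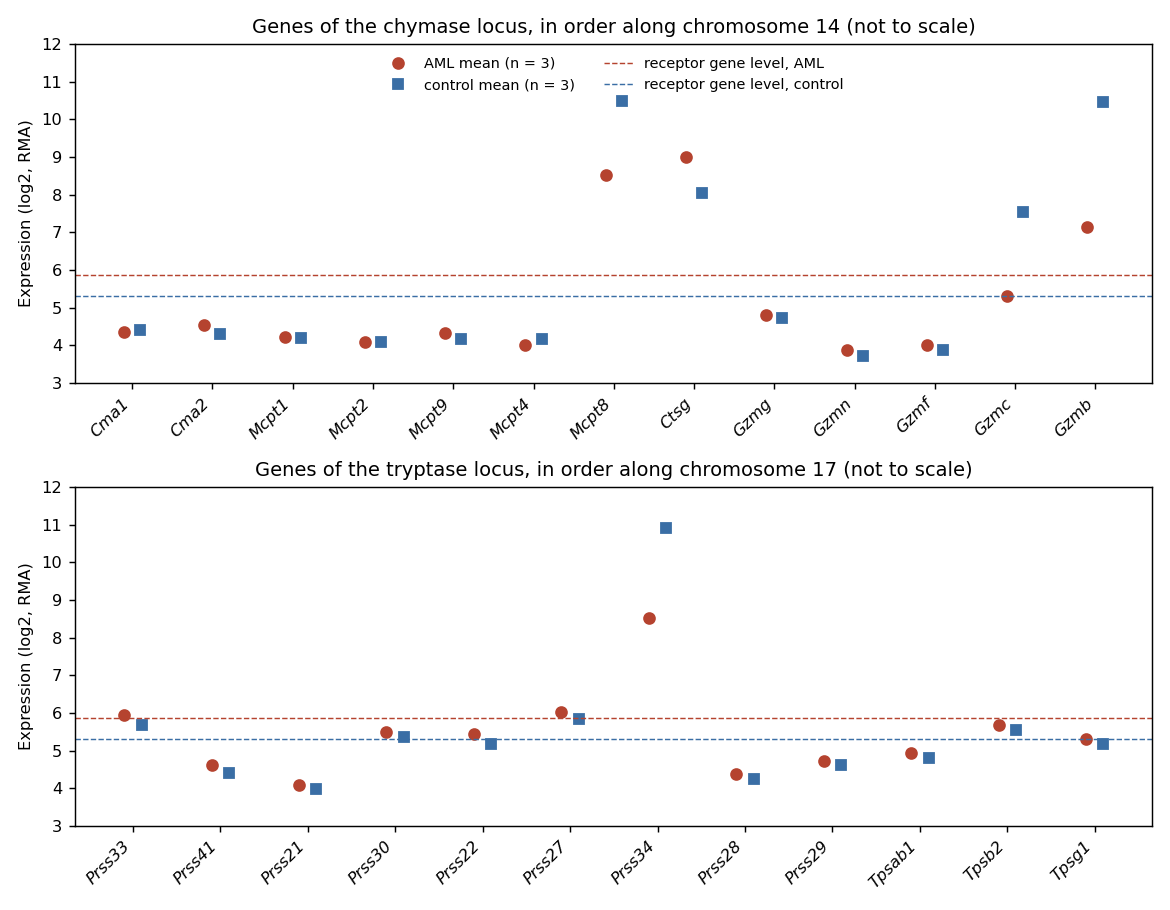
Mean log2 expression in AML (circles) and control (squares), 3 arrays each, for genes of the chymase locus (chromosome 14) and the tryptase locus (chromosome 17) in chromosome order, not to scale; dashed lines give the average receptor gene level of each group. Mcpt8 and Prss34 stand well above the dashed lines with AML under control, most neighbours lie under or near the lines, and Ctsg stands the other way round (9.0 in AML, 8.05 in control).

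Other genes known from mouse basophils were mostly lower in the AML sorts. Of 16 measured, 10 fell and 0 rose, with a median difference of -1.48, and the falls numbered 9 to 12 when single arrays were left out. The other 6 did not pass: Il3ra and Il13 (given below), Osm (-0.52), Itga2 (0.15), Crlf2 (-0.07) and Ptgdr2 (-0.15, under background in both groups). This list was chosen with earlier results of these data known. Cd200r3, an activating receptor gene used as a basophil marker, averaged 5.01 ± 0.02 in AML, under background, and 7.21 ± 0.06 in control, and was at least 2.55-fold lower (adjusted p = 4.62e-05). Il6 was at least 9.01-fold lower and Cyp11a1, a steroid synthesis gene, at least 4.98-fold lower in the brighter of its 2 array rows (its difference of measured means was -2.59 in that row and -1.24 in the mean of both rows), while Lilr4b, an inhibitory receptor gene of many myeloid cells, was 3.04-fold lower at 9.79 ± 0.14 in AML against 11.39 ± 0.11 in control (adjusted p = 0.000351, 0.000965 and 0.000467). Il6, Lilr4b and the chemokine genes of the list are also expressed by other myeloid cells. Il3ra, a subunit of the receptor for the basophil growth factor interleukin 3, averaged 7.56 ± 0.20 in AML and 7.55 ± 0.17 in control (adjusted p = 0.963; its sign turned under median centring), and Il13 averaged 6.46 ± 0.35 in AML and 7.06 ± 0.05 in control (adjusted p = 0.0636). Il13 passed in 6 of 19 alternatives: without AML replicate 3 (adjusted p = 0.0271), with array weights (0.0251), with median centring (0.0451) and under the 3 filters on dim genes (0.038 to 0.0473). Il3ra and Il13 were picked with their values in view.

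Few of the other mast cell genes passed the test. Of 17 measured, 2 fell and 0 rose (1 was higher at an unadjusted p under 0.05), with a median difference of 0.12, and 13 were not shown above background in either group. Slc18a2, the vesicle transporter gene that loads amines such as histamine and serotonin into granules and is also used by platelets, fell by 0.63 to 6.87 ± 0.05 in AML, against 7.50 ± 0.12 in control (adjusted p = 0.00663). Mitf, a transcription factor of mast cells and pigment cells, averaged 5.77 ± 0.09 in AML, under background, and 6.36 ± 0.13 in control (adjusted p = 0.0118), a call lost without control replicate 2 or control replicate 3 (adjusted p 0.0634 and 0.0545). Kit, the stem cell factor receptor gene carried by mast cells and progenitors and chosen after its values were seen, averaged 7.24 ± 0.23 in AML and 7.03 ± 0.26 in control (adjusted p = 0.377).

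The signalling genes downstream of the IgE receptor are shared with many blood cells, and a minority of them fell. Of 24 measured, 8 fell and 1 rose, with a median difference of -0.30. The falls numbered 5 without AML replicate 1, 4 without AML replicate 2, 2 without control replicate 2 and 4 without control replicate 3. They numbered 2 with replicate number as a block in the fit and 5 with quantile normalization. Fcer1g, the gamma chain gene shared by Fc receptors, averaged 9.59 ± 0.08 in AML and 10.17 ± 0.07 in control (adjusted p = 0.00633). The kinase genes Syk, Prkcd and Prkcb fell by 0.81, 0.68 and 0.73 (adjusted p = 0.00975, 0.00921 and 0.0145), of which Prkcd lost its call without control replicate 2 (adjusted p = 0.0519) and Prkcb without control replicate 2 or 3 (adjusted p 0.064 to 0.0718). Btk, a kinase gene of B cells and myeloid cells, was the gene that rose (difference 0.44, adjusted p = 0.0451), and median centring ended that call (adjusted p = 0.113), as did leaving out any single array but AML replicate 2 (0.06 to 0.15). With the replicate block the calls of Syk, Prkcb and Btk were lost (adjusted p = 0.0543, 0.0558 and 0.0908).

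Genes for the synthesis and storage of mediators fell in 8 of 17 cases and rose in 0, with a median difference of -0.38. The falls numbered 5 without AML replicate 2, 4 without control replicate 2 and 3 without control replicate 3. With the replicate block they numbered 4. Ptgs2, the inducible prostaglandin synthase gene, averaged 7.06 ± 0.19 in AML and 9.47 ± 0.07 in control, a 5.33-fold fall (adjusted p = 0.000221). Hpgds, which makes prostaglandin D in mast cells and macrophages, was at least 1.88-fold lower (5.42 ± 0.24 in AML, 6.81 ± 0.10 in control, adjusted p = 0.00175). Snap23, a membrane fusion gene of degranulation, fell by 0.63 (adjusted p = 0.0113). Dpp4, a surface peptidase gene, passed as well (adjusted p = 0.0107) but was under background in both groups, and its call was lost without control replicate 3 (adjusted p = 0.0517).

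Among 11 receptor genes for growth factors, type 2 cytokines and histamine, 6 fell and 0 rose (median difference -0.39). In 4 of the 11 neither group was shown above background, among them Hrh2 and Hrh4, which fell. When only genes above the receptor gene level were tested, 3 fell. Il7r, part of the receptors for interleukin 7 and thymic stromal lymphopoietin, was at least 3.03-fold lower in AML (5.33 ± 0.32, against 7.46 ± 0.05 in control, adjusted p = 0.000704), and Il13ra1 at least 1.66-fold lower (adjusted p = 0.0013). Il5ra, the interleukin 5 receptor gene of eosinophils and basophils, fell 2.59-fold to 5.92 ± 0.16 in AML, against 7.30 ± 0.20 in control (adjusted p = 0.00168). That AML mean is barely over the background level of 5.86. On AML array 3 Il5ra (5.74) was under the level of that array (6.24). Cd200r1 averaged 4.90 ± 0.10 in AML, under background, and 5.68 ± 0.11 in control (adjusted p = 0.00375). Of 13 genes of the type 2 cytokine locus and other type 2 cytokines, 0 passed in either direction by limma (2 were lower and 0 higher at an unadjusted p under 0.05), and 8 were under background in both groups. Without AML replicate 3, Il4 passed as given above, and 2 of the 12 others fell.

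Of 17 transcription factors of both lineages, 4 fell and 0 rose (limma; 6 were lower and 6 higher at an unadjusted p under 0.05), with a median difference of -0.02. These counts moved when single arrays were left out: 4 rose without AML replicate 3, 1 fell without AML replicate 1 or 2, and 0 fell without control replicate 2 or 3. They also moved with the model and scaling. On all 6 arrays, 4 rose with array weights and 2 with quantile normalization or cyclic loess. With the replicate block 0 fell. Irf8, a factor of monocyte and basophil precursors, fell by 0.66 (adjusted p = 0.0139, lost without control replicate 2 or 3 with adjusted p 0.0634 to 0.0659). Lmo4 fell by 0.39 (adjusted p = 0.034). Nfil3 and Hes1, whose AML means were under background, were at least 1.30-fold and at least 1.12-fold lower (adjusted p = 0.0294 and 0.0361). The calls of Lmo4, Nfil3 and Hes1 were each lost without 4 or 5 of the single arrays, with adjusted p 0.0514 to 0.149.

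**Figure D4:**
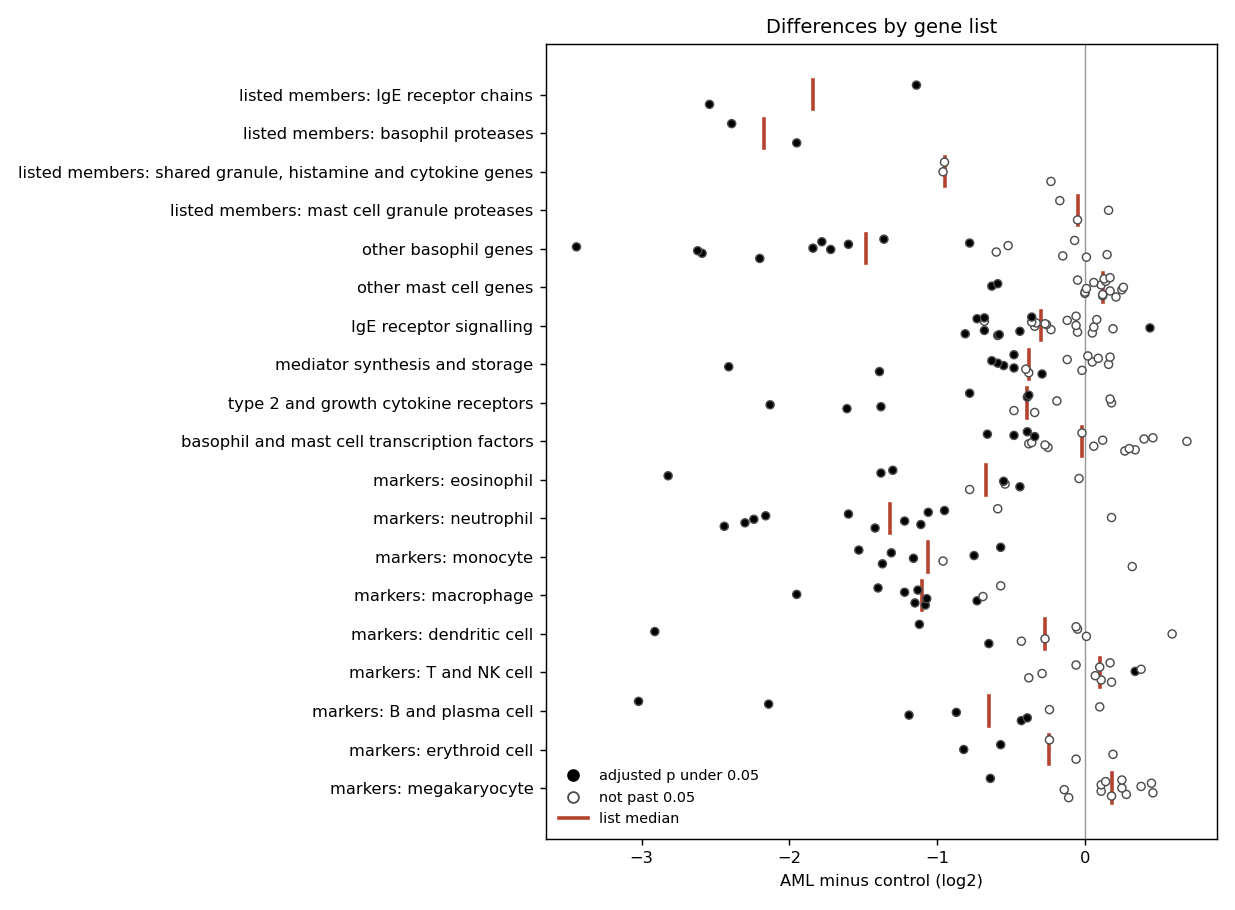
AML minus control differences (log2) of single genes by list; filled points passed an adjusted p of 0.05, open points did not, and vertical bars mark list medians. The basophil protease members lie far left (median -2.17), as do those of the IgE receptor, whose differences include values under background, mast cell lists lie near 0, and neutrophil, monocyte and macrophage markers lie left as well (medians -1.32, -1.06 and -1.10).

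Markers of other cell types that the sort could hold moved in the same samples. Levels of a whole list are given as the log2 of the summed linear signal on each array. Of 12 neutrophil markers, 10 fell and 0 rose, the sum lay at 12.90 to 13.23 in AML and at 14.47 to 14.70 in control, and none was under background in both groups. Ngp fell by 1.11 and Retnlg by 1.06 (adjusted p = 0.00318 and 0.0011). Larger differences were found for Camp (-2.44), Ltf (-2.30), Mmp8 (-2.24) and S100a8 (-2.16). Those of Mcpt8 and Prss34, -1.95 and -2.39, were of similar size. Mmp9 and Csf3r did not pass. Of 8 monocyte markers, 6 fell (sum 12.23 to 12.73 in AML, 12.39 to 12.56 in control), with Ms4a6c lower by 2.47-fold (adjusted p = 0.00218) and Ly6c2 at 12.27 ± 0.30 in AML and 11.95 ± 0.10 in control (adjusted p = 0.187). Of 10 macrophage markers, 8 fell (sum 10.67 to 11.36 in AML, 11.91 to 12.11 in control). Mrc1 fell by 1.95 (adjusted p = 0.00149), the size found for Mcpt8. Cd163, with an AML mean under background, was at least 2.08-fold lower (adjusted p = 0.000381). C1qb averaged 8.56 ± 0.45 in AML and 9.71 ± 0.13 in control (adjusted p = 0.02, lost without AML replicate 2 or control replicate 2 or 3 with adjusted p up to 0.0861), and Vcam1 8.69 ± 0.49 in AML and 9.37 ± 0.05 in control (adjusted p = 0.0891).

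Eosinophils are granulocytes that share cytokine receptors with basophils. Of 8 eosinophil markers, 5 fell and 0 rose (sum 12.65 to 13.12 in AML, 13.40 to 13.63 in control, none under background in both groups). Prg2, the major basic protein gene, averaged 12.30 ± 0.19 in AML and 12.74 ± 0.08 in control (adjusted p = 0.0468, lost without any single array but AML replicate 3, with adjusted p 0.059 to 0.157), and Prg3 10.09 ± 0.49 in AML and 10.63 ± 0.18 in control (adjusted p = 0.164). The largest fall of the list was that of Ccr3 (7.08-fold, adjusted p = 0.00137), and Alox15 fell 2.46-fold (adjusted p = 0.0161). The AML mean of Ccr3, 6.12 ± 0.50, lay close to the background level of 5.86. On AML array 3 Ccr3 (5.83) was under the level of that array (6.24). Epx and Siglecf did not pass.

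Of 8 B and plasma cell markers 6 fell (sum 8.69 to 9.21 in AML, 10.60 to 11.10 in control), among them Ighm, 8.10-fold lower (adjusted p = 0.0017), and Cd79b, lower by 1.31-fold (adjusted p = 0.0483, lost without 5 of the single arrays with adjusted p up to 0.157). Ms4a1, which also fell, was under background in both groups. The AML means of Cd79a, Ebf1 and Jchain, which fell as well, were under background. Of 9 dendritic cell markers 3 fell (sum 9.08 to 9.28 in AML, 9.76 to 9.84 in control), with Xcr1, Ccr9 and Zbtb46 under background in both groups, Clec9a at 7.59 ± 0.31 in AML and 7.0 ± 0.67 in control (adjusted p = 0.24) and Bst2 at 7.03 ± 0.09 in AML and 7.47 ± 0.49 in control (adjusted p = 0.217). The dendritic genes that fell were Cd209a, Itgax and Siglech. Cd209a and Siglech, with AML means under background, were at least 3.64-fold and at least 1.17-fold lower (adjusted p = 0.000281 and 0.0096). Itgax fell by 1.12 (adjusted p = 0.00175). Of 10 T and NK cell markers 0 fell and 1 rose (sum 9.36 to 9.68 in AML, 9.36 to 9.58 in control), 8 of them under background in both groups, with Nkg7 at 8.94 ± 0.27 in AML and 8.83 ± 0.18 in control (adjusted p = 0.647; its sign turned under median centring) and Cd4 at 5.49 ± 0.18 in AML and 5.78 ± 0.03 in control (adjusted p = 0.111). The gene of that list that rose, Ncr1, was under background in both groups (adjusted p = 0.0366). Of 5 erythroid markers 2 fell (sum 8.29 to 8.47 in AML, 8.60 to 8.70 in control), with Epor at 6.98 ± 0.26 in AML and 6.78 ± 0.03 in control (adjusted p = 0.323) and Slc4a1 lower by 1.49-fold (adjusted p = 0.0278, lost without AML replicate 2 or control replicate 2 or 3 with adjusted p up to 0.108). Of 13 megakaryocyte markers 1 fell and 0 rose (sum 13.89 to 14.41 in AML, 13.99 to 14.35 in control), and Ppbp averaged 12.23 ± 0.16 in AML and 12.37 ± 0.17 in control (adjusted p = 0.424). The part of any of these cell types in the falls of the basophil genes was not tested.

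The summed level of Mcpt8 and Prss34 lay at 9.32 to 9.67 on the AML arrays and at 11.48 to 11.89 on the control arrays, without overlap. That of Cpa3, Hdc and Il4 lay at 9.56 to 10.42 in AML and at 10.48 to 10.86 in control, with the AML low again on array 3. That of Cma1, Tpsb2 and Mcpt4 lay at 6.26 to 6.62 in AML and at 6.25 to 6.66 in control.

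Profiles over the 6 arrays were compared by the root mean square difference after centring each gene on its own mean, among 15032 genes at or above the median level. Nearest to Fcer1a were Rgs1 at 0.125, Clec5a at 0.130, Rnase6 at 0.141, Fcnb at 0.160 and Camp at 0.161 log2 units. Of the other 9 genes described here, the nearest to Fcer1a were Prss34 at 0.321 and Mcpt8 at 0.353. The 5 nearest were picked from 15032 genes and the members from 9, so these distances cannot be ranked against each other. Nearest to Mcpt8 were Cytip at 0.106, Bank1 at 0.123, B3gnt5 at 0.123, Adgre4 at 0.127 and Naaa at 0.128, and among the members Prss34 at 0.271. The AML minus control differences were -2.41 to -2.78 for the 5 genes nearest to Fcer1a and -1.84 to -2.08 for the 5 nearest to Mcpt8. Such likeness of the differences follows from the choice by profile. Of these 10 genes, Clec5a, Fcnb, Cytip and B3gnt5 had AML means under background, as had Fcer1a itself.

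**Figure D5:**
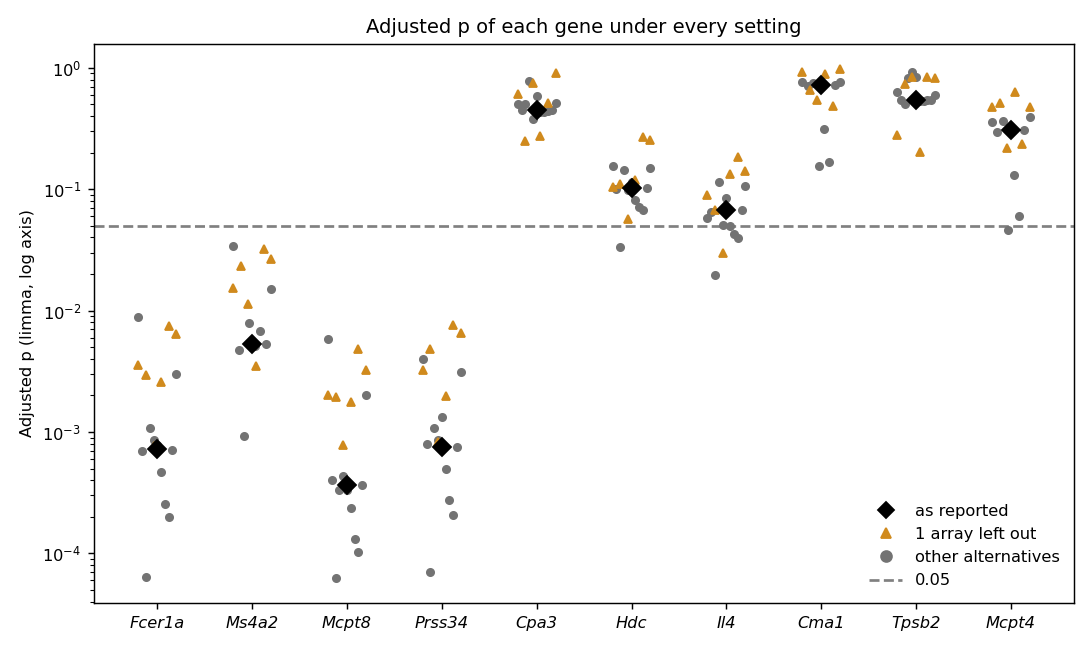
Adjusted p (limma, log axis) of each of the 10 genes as reported (diamonds), with single arrays left out (triangles) and under the other alternatives (circles); the dashed line is 0.05. Fcer1a, Ms4a2, Mcpt8 and Prss34 stay under the line throughout, Il4 and Hdc lie on both sides, and Cpa3, Cma1 and Tpsb2 stay above it, as does Mcpt4 except at 0.0463 under quantile normalization.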

How the data were processed

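Megakaryocytes were sorted into Trizol and biotin-labelled cDNA from 250 ng of total RNA was hybridised to an Affymetrix array, per the labels' protocols. The authors deposited log2 expression values made with RMA, per the submitters' processing notes; its version and the genome build of the array design are not given in the sources used here. Of 72688 rows, 30604 had 1 gene symbol, 2146 several and 39938 none. Symbols were updated through RefSeq (GRCm38.p6), and the row with the highest mean over 6 arrays was kept per gene, which left 30063 genes. Values were tested as deposited with limma (lmFit, eBayes, no trend), with 1 coefficient for AML minus control, a two-sided test and p-values adjusted by Benjamini-Hochberg over the 30063 genes. Where only 1 group was under background, the other group's mean was set against the higher of the receptor gene 95th percentile and the gene's own value on each array.

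The members and the 22 gene lists were chosen with earlier results of these data known. Genes named beyond the 10 were up to 4 past the threshold per related list and direction (smallest p), the 2 brightest of each marker list and the 5 nearest profiles of Fcer1a and Mcpt8; any other was chosen after its values were seen. Listed genes without a row of 1 symbol, such as Lyn and Csf2rb, were not analysed here. The fit was tested on simulated data. The 19 alternatives comprised 6 left-out arrays and 13 other settings of the model, scaling, filter, row choice and threshold. The fits ran in R 4.3.3 with limma 3.58.1; tables were read with the package data.table (1.17.8). Summaries were made in Python 3.11.15 with numpy 2.4.6 and pandas 2.3.3, and plots with matplotlib 3.10.9.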

Additional observations from a re-analysis of the deposited data

How the results depend on the processing

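Over 19 alternatives, the 10 genes gave 3 to 6 falls and 0 rises by limma, against 4 and 0 as reported. Il4 passed with array weights (adjusted p = 0.0198), among genes at or above the median (0.0425) or above the receptor gene level (0.0393) and without AML replicate 3 (0.0297), Hdc with array weights (0.0331), and Mcpt4, under background, with quantile normalization (0.0463).

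Over the 127 other genes of the related lists, 40 fell and 2 rose. The falls numbered 24 with the replicate block, 16 with a 2-fold minimum, and 22 to 39 over left-out arrays, with 22 without control replicate 2 and 24 without control replicate 3. The rises numbered 0 with the replicate block, 8 with array weights, 4 with quantile normalization, 1 with median centring, 4 with cyclic loess, 0 with every row of the table tested, 1 with a 1.5-fold minimum, 0 with a 2-fold minimum, and 0 to 5 over left-out arrays. Nothing in the labels ties equal replicate numbers of the 2 groups together. Deviations from the group means correlated at -0.36, 0.142 and -0.291 for numbers 1, 2 and 3, and at -0.277 to 0.434 for unequal numbers. Deviations from a mean of 3 arrays depend on each other, so these correlations cannot settle whether samples were paired. The replicate block lost no call among the 10 genes. Over all genes, falls and rises numbered 861 and 206 with the replicate block and 3014 and 4839 with array weights.

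Signs turned for Cma1, Il3ra and Nkg7, whose differences were near 0. Under median centring Il3ra was -0.11 and Nkg7 -0.02, and over left-out arrays Il3ra ranged from -0.09 to 0.12, Nkg7 from -0.00 to 0.25 and Cma1 from -0.12 to 0.02. Dim genes limit what can be read: differences under the receptor gene level have no fold.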
